A study of Mus musculus with 6 samples.

Results

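The epithelial keratins studied here were Krt7, Krt8, Krt18, Krt19, Krt20 and Krt23, and their members were all probe sets whose only annotated gene symbol was 1 of these names. The rule found 6 genes with 8 probe sets, out of 18193 named genes with 34945 probe sets. Krt8 had 3 probe sets and each of the other 5 genes had 1. Liver RNA came from 6 male mice, with 1 array per mouse. The WT group held 3 wild-type mice. The ChLO group held 3 mice with floxed Chrebp alleles and albumin-Cre, a Cre recombinase that the albumin promoter drives in hepatocytes. All 6 mice were fed a diet with 60% sucrose for 1 week at 12 weeks of age, so no array shows another diet. Chrebp, now named Mlxipl, encodes the carbohydrate-responsive transcription factor ChREBP. The comparison asked which keratin transcripts differ in the liver when this factor is deleted in hepatocytes under a sucrose load. In whole liver RNA, fewer cells of a type and less RNA per cell cannot be told apart.

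Keratins are the intermediate filament proteins of epithelia. A filament forms from pairs of an acidic type I and a basic type II keratin, and a keratin without its partner is degraded. Hepatocytes use K8 (type II, from Krt8) with K18 (type I, from Krt18), whereas bile duct cells add K7 (type II, from Krt7) and K19 (type I, from Krt19). K20, from Krt20, is a type I keratin of gut epithelium and urothelium. K23, from Krt23, is a type I keratin known as inducible by stress in liver. Livers with ongoing injury are known for more K8 and K18 and for keratin aggregates called Mallory-Denk bodies.

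The genes lie in the mouse type I and type II keratin clusters (GRCm38.p6, RefSeq). Krt7 (chromosome 15, 101412403 to 101427806), Krt8 (chromosome 15, 101996711 to 102004342) and Krt18 (chromosome 15, 102028216 to 102032026) share a chromosome, and Krt18 is the type I gene that lies in the type II cluster. Krt8 and Krt18 are 23873 bases apart. Krt20 (chromosome 11, 99428385 to 99438153), Krt23 (chromosome 11, 99477973 to 99493120) and Krt19 (chromosome 11, 100140810 to 100145926) lie together on chromosome 11. Krt20 and Krt23 are adjacent, 39819 bases apart. Promoter windows from RefSeq, with 250 bases before the annotated start and 50 after it, were matched by symbol for 5 of the 6 genes, and Krt19 was not matched.

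The windows of Krt8, Krt18 and Krt23 are shown because Krt8 and Krt18 had nearly the same values across the arrays while Krt23 differed from them in ChLO 3. They are written 5′ to 3′ on the strand of the gene, and capitals mark matches to the 4 motifs that were searched on both strands.
Krt8, chr15:102004293-102004592, minus strand: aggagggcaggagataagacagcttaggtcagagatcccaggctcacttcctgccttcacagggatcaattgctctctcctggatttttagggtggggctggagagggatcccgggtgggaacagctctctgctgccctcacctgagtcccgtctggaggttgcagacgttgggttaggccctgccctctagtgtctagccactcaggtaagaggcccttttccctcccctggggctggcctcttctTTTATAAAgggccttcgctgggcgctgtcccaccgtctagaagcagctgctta
Krt18, chr15:102027966-102028265, plus strand: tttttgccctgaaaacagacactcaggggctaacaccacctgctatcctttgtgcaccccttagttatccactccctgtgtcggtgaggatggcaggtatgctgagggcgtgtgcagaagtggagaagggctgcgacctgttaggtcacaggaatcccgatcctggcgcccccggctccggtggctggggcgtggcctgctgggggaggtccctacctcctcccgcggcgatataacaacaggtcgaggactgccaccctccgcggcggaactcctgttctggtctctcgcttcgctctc
Krt23, chr11:99493071-99493370, minus strand: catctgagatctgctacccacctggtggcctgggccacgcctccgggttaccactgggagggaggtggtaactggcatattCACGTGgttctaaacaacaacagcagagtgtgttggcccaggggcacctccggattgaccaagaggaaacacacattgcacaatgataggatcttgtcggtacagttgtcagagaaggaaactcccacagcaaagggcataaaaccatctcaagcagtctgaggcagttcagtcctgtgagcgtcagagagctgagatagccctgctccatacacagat
The AP-1 motif was written TGANTCA and was held by 7.81% of 32851 promoter windows of this length. The E-box motif was written CACGTG and was held by 7.15% of them. The letters for the TATA box were TATAAA, held by 13.6%, and those for the GC box were GGGCGG, held by 35.7%. The Krt23 window held 1 E-box, from -169 to -164 relative to the annotated start. The Krt8 window held that TATA box motif on both strands in overlapping matches, from -3 to 5. None of the 4 motifs was matched in the Krt18 window. Krt7 had 4 GC box matches and Krt20 had 1 TATA match, from -29 to -24. These matches describe letters in the windows and were not tested against the signals.

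The deposited values are log2 signals from MAS5, Affymetrix's summary of each array by itself. After conversion to linear signal the trimmed mean was 500 on every array, and array medians ran from 6.38 to 6.60. Probe sets with a mean below 5.50, the 40th percentile, were left out of the tests, and 12598 genes remained. Of the 6 keratins 5 passed, and Krt20, with a mean of 4.69, did not. Mlxipl read 12.61, 12.56 and 12.59 in WT 1, 2 and 3 and 10.34, 11.22 and 11.48 in ChLO 1, 2 and 3. Whether its probe set lies in the floxed exons is not known here, so these values check the genotype labels only in part. Limma called 0 genes with all 6 arrays (1129 at an unadjusted p under 0.05) and 302 without ChLO 3. Keratin differences are therefore given with and without that array.

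Krt8 and Krt18, the filament pair of hepatocytes, read far higher in ChLO 1 and ChLO 2 than in any WT liver, while ChLO 3 read at the WT level. Krt23 read higher in all 3 ChLO livers, ChLO 3 included, and had the largest difference of the 5 keratins tested over all 6 arrays, but not without ChLO 3, where Krt8 and Krt18 differed more. Krt19 read slightly higher in all 3 ChLO livers near the filter level, and Krt7 and Krt20 showed no separation. No keratin passed an adjusted p of 0.05 in limma with all 6 arrays, where 0% of genes passed. At an unadjusted p under 0.05 there were 3 keratins of 5 tested (Krt8, Krt18 and Krt23), beside 8.96% of all genes. Without ChLO 3 the same 3 keratins passed an adjusted p of 0.05, beside 2.4% of all genes (1.6% higher). The keratins and the array to leave out were both chosen with such results known, so these counts are a description. ChLO 3 is the array where Krt8 and Krt18 read at the WT level. Their smaller p without it is therefore no separate support.

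**Figure D1:**
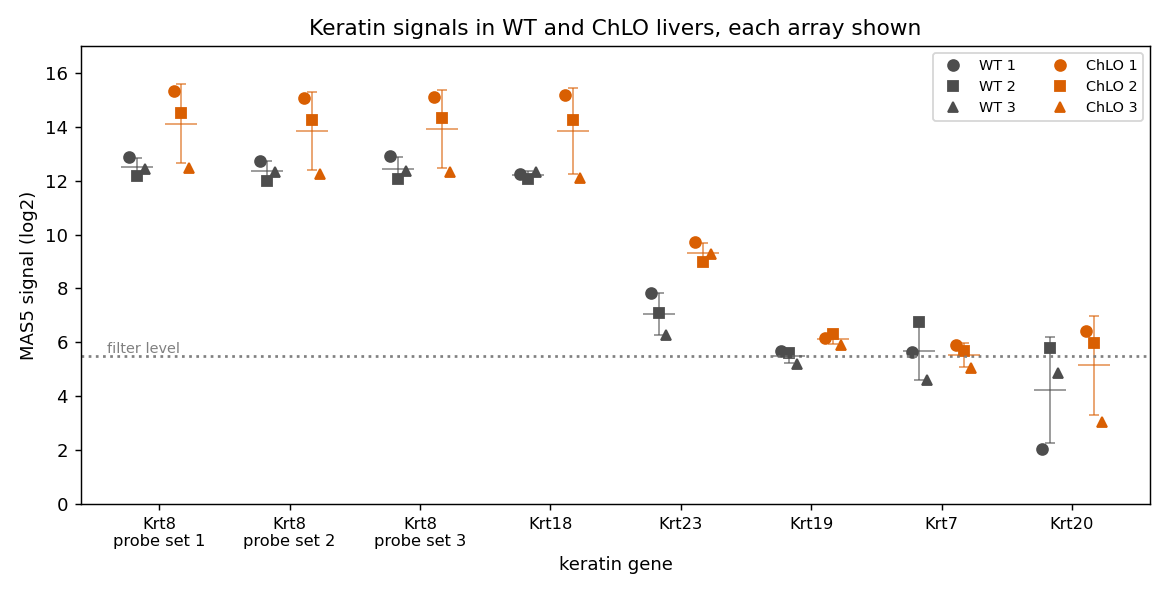
MAS5 signal (log2) of the 8 keratin probe sets on each array, with WT in grey and ChLO in orange. Horizontal ticks and bars are the mean and SD of 3 arrays, and the dotted line is the filter level of 5.50. Krt23 is the only probe set well above that line whose ChLO arrays (8.99 to 9.71) all lie above its WT arrays (6.27 to 7.83).

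Krt8 was read by the probe sets 1420647_a_at, 1423691_x_at and 1435989_x_at. The first, which had the highest mean, gave 12.86, 12.17 and 12.44 in WT 1, 2 and 3 and 15.34, 14.51 and 12.48 in ChLO 1, 2 and 3. The groups overlapped through ChLO 3, which lay between WT 3 and WT 1, while ChLO 1 and ChLO 2 lay above every WT array. The group levels were 12.49 ± 0.35 in WT and 14.11 ± 1.47 in ChLO (SD, n = 3 each). The SD was thus larger in ChLO, and most of it came from the gap of ChLO 3 to the other arrays.

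The difference for Krt8 was 1.62 (SE 0.64, 95% interval 0.14 to 3.09), a fold of 3.07, with a limma adjusted p of 0.532. Without ChLO 3 it was 2.43 (SE 0.29, adjusted p = 0.0134), a fold of 5.40, and without ChLO 1 it was 1.00. Over all its alternatives the adjusted p for Krt8 ran from 0.0134 to 0.876. The other Krt8 probe sets gave 1.51 and 1.46. Each probe set was set against its own WT mean: they stood at 2.85, 2.73 and 2.65 in ChLO 1, at 2.02, 1.89 and 1.87 in ChLO 2 and at -0.01, -0.08 and -0.14 in ChLO 3. All 3 thus placed ChLO 1 highest and ChLO 3 at the WT level.

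Krt18, whose product is the partner of K8, had 1 probe set (1448169_at). It read 12.25, 12.05 and 12.31 in WT and 15.18, 14.24 and 12.08 in ChLO. ChLO 3 lay inside the narrow WT range, and ChLO 1 and ChLO 2 lay above it. The levels were 12.20 ± 0.14 in WT and 13.84 ± 1.59 in ChLO (SD, n = 3 each).

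Krt18 differed by 1.63 (SE 0.67, 95% interval 0.08 to 3.18), a fold of 3.10, with a limma adjusted p of 0.542. Without ChLO 3 the difference was 2.51 (SE 0.27, adjusted p = 0.0134), a fold of 5.68, and without ChLO 1 it was 0.96. The adjusted p for Krt18 ran from 0.0134 to 0.877 over its alternatives. Of the 12598 genes, 147 had a difference at least as high as that of Krt8 and 143 as high as that of Krt18.

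Relative to the WT mean, Krt8 stood at 2.85, 2.02 and -0.01 and Krt18 at 2.98, 2.03 and -0.12 in ChLO 1, 2 and 3. Both partner transcripts thus had nearly the same deviation in each ChLO liver. The log2 ratio of Krt8 to Krt18 within an array was 0.61, 0.12 and 0.13 in WT and 0.16, 0.27 and 0.40 in ChLO. The ChLO ratios lay inside the WT range. The ratio differed by -0.01 between groups (adjusted p = 1 over 3 pairs of keratins, exact two-sided permutation test, whose smallest raw p here is 0.1), and its sign turned in some alternatives, which ran from -0.10 to 0.15. The WT ratios themselves spanned 0.49. The smallest raw p of the exact test, 0.1, lies above the threshold used for limma. A change in ratio of any size could therefore not pass, and no conclusion is drawn from this test.

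Krt23, the stress-inducible type I keratin, was read by 1418213_at at 7.83, 7.09 and 6.27 in WT and at 9.71, 8.99 and 9.26 in ChLO. All 3 ChLO arrays lay above all 3 WT arrays, and ChLO 3 lay between ChLO 2 and ChLO 1. The levels were 7.06 ± 0.78 in WT and 9.32 ± 0.37 in ChLO (SD, n = 3 each). Here the WT mice were the more variable group.

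The Krt23 difference was 2.26 (SE 0.41, 95% interval 1.32 to 3.19), a fold of 4.78, with a limma adjusted p of 0.185. It was 2.29 without ChLO 3 (adjusted p = 0.04997, just inside the threshold), and fits without a single array gave 1.86 to 2.64. The adjusted p for Krt23 ran from 0.0273 to 0.614 over its alternatives. Among the 12598 genes, 43 had a difference at least as high and 36 a p at least as small. The lowest ChLO array was 1.16 above the highest WT array, and 11 genes had a gap at least that large. These ranks describe 1 gene and were read after its values were seen.

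**Figure D2:**
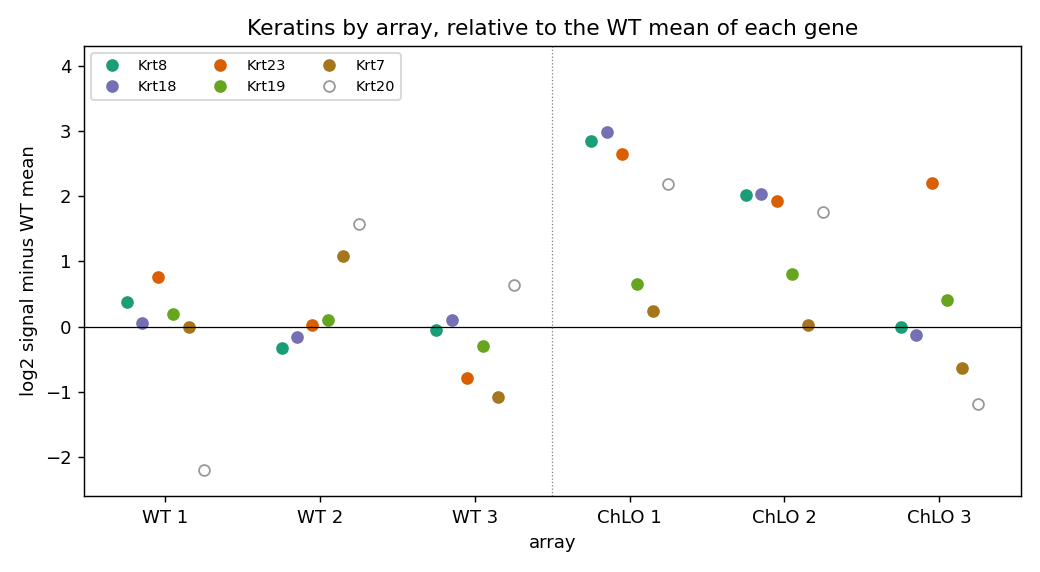
Log2 signal minus the WT mean of the same gene, for each of the 6 keratins (colours, with Krt20 open because it did not pass the filter) on each array. In ChLO 3 Krt8 and Krt18 lie at -0.01 and -0.12, while Krt23 lies at 2.20.

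Krt23 stood at 2.65, 1.92 and 2.20 above its WT mean in ChLO 1, 2 and 3. It resembled Krt8 and Krt18 in ChLO 1 and ChLO 2 and differed from them in ChLO 3. The log2 ratio of Krt23 to Krt8 was -5.04, -5.08 and -6.17 in WT and -5.63, -5.52 and -3.22 in ChLO. ChLO 3 was the highest array and the other ChLO arrays lay inside the WT range. The group difference of this ratio was 0.64 (adjusted p = 1 over the 3 pairs, exact two-sided permutation test), and that of Krt23 to Krt18 was 0.63 (adjusted p = 1). Since different probe sets have different brightness, only changes of these ratios between arrays can be read. As for the ratio of Krt8 to Krt18, the exact test could not pass a change of any size. It therefore cannot decide whether these keratins differ over the groups, and ChLO 3 is a single mouse.

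Among the bile duct keratins, Krt19 (1417156_at) read 5.68, 5.61 and 5.21 in WT and 6.15, 6.30 and 5.91 in ChLO. The groups did not overlap, but they were 0.22 apart, and the WT mean of 5.50 lay at the filter level. Every ChLO array above every WT array was found for 9.04% of all genes, and for 2 of the 5 keratins tested (Krt19 and Krt23), and every ChLO array below every WT array for 6.19% of genes and for 0 keratins. ChLO 1 and ChLO 2 lay above every WT array for 4 of the 5 keratins (all but Krt7), beside 23.3% of genes. Krt19 differed by 0.62 (SE 0.45, 95% interval -0.41 to 1.65; limma adjusted p = 0.685). The interval covers both no difference and a fold of 3.15.

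Krt7, the type II partner in bile ducts, was read by 1423952_a_at at 5.65, 6.75 and 4.59 in WT and at 5.90, 5.69 and 5.04 in ChLO. All 3 ChLO values lay inside the WT range. The levels were 5.66 ± 1.08 in WT and 5.54 ± 0.45 in ChLO (SD, n = 3 each). The difference was -0.12 (SE 0.67, 95% interval -1.66 to 1.42; limma adjusted p = 0.962) and had no settled direction, being 0.42 without WT 2, 0.13 without ChLO 3 and 0.13 with spike-in scaling. A fold of 2.67 in the upward direction lies inside this interval, so a moderate change in Krt7 was not detectable at this signal.

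Krt20 (1426284_at) read 2.03, 5.80 and 4.86 in WT and 6.42, 5.99 and 3.05 in ChLO. ChLO 1 and ChLO 2 lay above every WT array by a small margin over WT 2, and ChLO 3 lay inside the WT range. On 3 of the 6 arrays the value was under the filter level of 5.50. In a fit of all probe sets without the filter the difference was 0.92 (SE 1.21, 95% interval -1.81 to 3.66), with a limma adjusted p of 0.897. The spread within each group was larger than the difference.

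**Figure D3:**
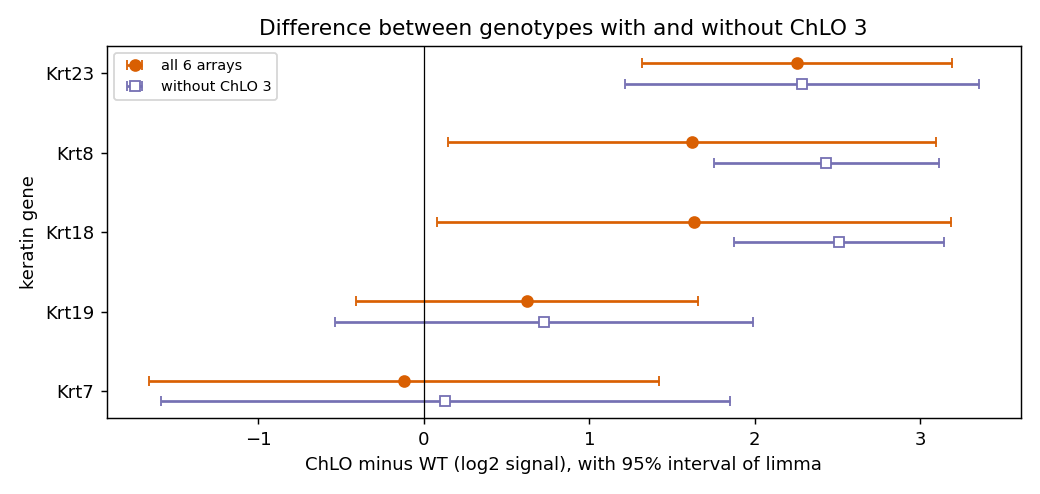
ChLO minus WT (log2 signal) for the 5 keratins tested, with the 95% interval of limma, over all 6 arrays (filled circles) and without ChLO 3 (open squares). Krt8 moves from 1.62 to 2.43 and Krt18 from 1.63 to 2.51, while Krt23 stays at 2.26 and 2.29.

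Likeness to a keratin was measured as the root mean square difference between log2 values relative to the WT mean, over 6 arrays. Krt8 and Krt18 were 0.18 apart, and Krt18 was the 2nd nearest of 12597 genes to Krt8. The genes nearest to the mean of Krt8 and Krt18 were Cav2 (0.16 apart), a caveolin of membrane pits, Tagln2 (0.18), an actin-binding protein, Acta2 (0.21), smooth muscle actin, Vim (0.26), the intermediate filament protein vimentin, and Tmsb10 (0.27), a thymosin that binds actin monomers. Vim read 10.11, 9.07 and 9.55 in WT and 12.25, 11.91 and 9.78 in ChLO. Cav2 read 9.02, 8.70 and 9.24 in WT and 11.87, 11.01 and 9.17 in ChLO. For each of these 5 genes ChLO 1 and ChLO 2 lay above every WT array and ChLO 3 lay inside the WT range.

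The gene nearest to Krt23 was Gsta2 (0.22 apart), a glutathione transferase. It read 11.23, 10.66 and 9.91 in WT and 13.49, 12.07 and 12.79 in ChLO, with a difference of 2.18 (SE 0.42, limma adjusted p = 0.228). As for Krt23, all 3 ChLO arrays lay above WT, ChLO 2 was the lowest of them and WT 3 the lowest of all. The next were Camk2d (0.47), a calmodulin-dependent kinase, Zfp677 (0.50), Tmem71 (0.50) and Rgs19 (0.52), a regulator of G protein signalling. These 4 were clearly farther away than Gsta2.

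The genes nearest to Krt19 were Calcrl (0.07 apart), a receptor for calcitonin-family peptides, Wdr47 (0.08), Mtmr2 (0.09), Atp8a1 (0.10) and Khdrbs3 (0.12). The genes nearest to Krt7 were Ralgds (0.18), Gsdmcl2 (0.20), Frmd8 (0.23), Fgf16 (0.24) and Ndn (0.25).

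Of 41 other keratin genes listed, 38 had a named probe set and 9 passed the filter. Of these 9, 6 had higher and 3 lower means in ChLO, with a median difference of 0.24 beside 0.06 over all genes. Among all genes tested 56.5% had a higher mean, a share to set beside this count and those of the lists below. The WT mean of 1 of the 9, Krt16 at 5.21, lay under the filter level. Krt16 passed the filter only through its ChLO arrays, so its higher mean in ChLO is no support. None of the 9 passed in limma with all arrays (1 at an unadjusted p under 0.05, Krt6a), and none without ChLO 3. Krt6a, a keratin of activated epidermis, differed by -0.88 (SE 0.38) and Krt10, a type I keratin of differentiating epidermis, by -0.47 (SE 0.24). Krt79 read 6.13, 5.16 and 6.16 in WT and 6.31, 6.36 and 7.02 in ChLO, a difference of 0.74 (SE 0.47, limma adjusted p = 0.644). Its ChLO arrays all lay above its WT arrays, as for Krt23, ChLO 1 by a small margin. Krt16 differed by 0.82 (SE 0.54).

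Of 15 listed proteins that link keratins to desmosomes or to other filaments, 11 were tested, and 9 had higher means in ChLO with a median of 0.20. Dsc2, a desmosomal cadherin, read 10.60, 10.64 and 10.79 in WT and 11.38, 11.25 and 10.92 in ChLO, a difference of 0.50 (SE 0.18, limma adjusted p = 0.498). All its ChLO arrays lay above WT, ChLO 3 by a small margin. Jup, plakoglobin, differed by 0.80 (SE 0.31), Dsp, desmoplakin, which anchors keratin filaments, by 0.59 (SE 0.31), and Ppl, periplakin, by 0.56 (SE 0.42). None passed, with or without ChLO 3.

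Of 18 listed genes of keratin aggregates and the proteins that bind or modify keratins, 15 were tested, 10 with higher and 5 with lower means in ChLO and a median of 0.15. Tgm2, the transglutaminase that crosslinks keratins in Mallory-Denk bodies, read 11.90, 11.62 and 12.04 in WT and 13.37, 13.46 and 12.16 in ChLO. All 3 ChLO arrays lay above WT, ChLO 3 only just. Tgm2 differed by 1.14 (SE 0.34, limma adjusted p = 0.455) and passed without ChLO 3 (adjusted p = 0.0134). Sqstm1, the p62 protein of these aggregates, read 12.33, 11.91 and 11.57 in WT and 13.34, 11.89 and 11.11 in ChLO, with only ChLO 1 above WT. Hspb1, a small heat shock protein that binds K8 and K18 filaments, differed by 1.55 (SE 0.86). Hspb8, of the same family, differed by 0.24 (SE 0.19), and Ywhab, a 14-3-3 protein, by 0.20 (SE 0.18).

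Among 15 other intermediate filament genes 6 were tested, 5 of them with higher means in ChLO. Besides Vim, which differed by 1.74 (SE 0.61; limma adjusted p = 0.497, and 0.0134 without ChLO 3), Lmna, the nuclear lamin A/C, differed by 1.18 (SE 0.48). Lmnb1, lamin B1, differed by 0.37 (SE 0.25) and Gfap, a filament protein of glia and stellate cells, by -1.28 (SE 1.04). The list median was 0.60.

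Like Krt8 and Krt18, the stellate, myeloid, cholangiocyte and endothelial marker medians exceeded those of all WT arrays in ChLO 1 and ChLO 2 only. The medians of the desmosome, keratin aggregate and other intermediate filament lists did so too. No marker passed with all 6 arrays, where 0% of genes passed. Without ChLO 3, limma passed 5 of 12 stellate, 2 of 11 myeloid, 1 of 13 cholangiocyte and 1 of 10 endothelial markers, all higher. No hepatocyte, mesothelial, or gut and pancreas marker passed there, beside 2.4% of all genes. The cholangiocyte marker that passed was Cldn4, whose WT mean of 5.38 lay under the filter level. It was tested only because its ChLO arrays were high, so no support is drawn from its pass. Hepatocyte markers define the labelled tissue, and the 14 of 16 listed that had a named probe set all passed the filter. These 14 were lower in ChLO on average, with medians from the WT mean of -0.41, -0.39 and -0.14 in ChLO 1, 2 and 3. Their summed linear signal was 598801 to 684058 in WT and 480452 to 602284 in ChLO. Apob, the protein of VLDL particles, differed by -0.43 (SE 0.19), and F2, prothrombin, by -0.45 (SE 0.21). All 12 stellate cell and fibroblast markers had higher means in ChLO, beside 56.5% of all genes tested. Their medians were 1.72, 1.61 and -0.05 in ChLO 1, 2 and 3. Their summed signal was 10990 to 16547 in WT and 12917 to 32086 in ChLO. Tagln, a smooth muscle protein, differed by 1.44 (SE 0.52), and Col1a2, a chain of type I collagen, by 1.41 (SE 0.58). Myeloid markers (9 of 11 higher) had medians of 1.60, 0.83 and -0.14 and summed signals of 15243 to 16159 in WT and 13961 to 24282 in ChLO. Ccr2, a receptor of recruited monocytes, differed by 1.55 (SE 0.69) and Cd68, a macrophage protein, by 1.13 (SE 0.57). Adgre1 and Clec4f, markers of macrophages and of Kupffer cells that were picked after their values were seen, differed by 0.14 (SE 0.23) and -0.14 (SE 0.27).

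Bile duct cells, or cholangiocytes, are the liver cells that Krt7 and Krt19 mark. Of 20 listed cholangiocyte markers, 13 were tested and 11 had higher means in ChLO, with medians of 0.85, 0.99 and 0.05 in ChLO 1, 2 and 3, and 2 of the 13 had a WT mean under the filter level. Their summed signal was 4229 to 4343 in WT and 4333 to 6215 in ChLO, with ChLO 3 inside the WT range. Aqp1, by far the brightest of the 13, made the largest part of this sum on every array. It differed by 0.03 (SE 0.19), so the sum shows little of the dimmer markers. Cldn4, a tight junction claudin, read 5.33, 6.10 and 4.71 in WT and 9.95, 8.09 and 6.33 in ChLO. Its WT mean lay under the filter level, as did that of Cldn7. Epcam, an adhesion protein of bile duct cells, read 6.63, 5.75 and 5.69 in WT and 6.01, 7.45 and 7.30 in ChLO. Sox9, a transcription factor of bile duct cells, read 6.72, 6.56 and 6.27 in WT and 8.43, 7.28 and 4.52 in ChLO. Cd24a, a surface glycoprotein, differed by 0.91 (SE 0.29) and Elf3, an epithelial transcription factor, by 0.96 (SE 0.38). Bicc1, an RNA-binding protein, differed by 0.95 (SE 0.44). The 2 with lower means were Dcdc2a, at -0.20 (SE 0.32), and Pkhd1, at -0.08 (SE 0.40). Epcam and Sox9 were named although they ranked 5 and 11 of the 13 by p. Of the 20 listed, 7 were not tested.

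**Figure D4:**
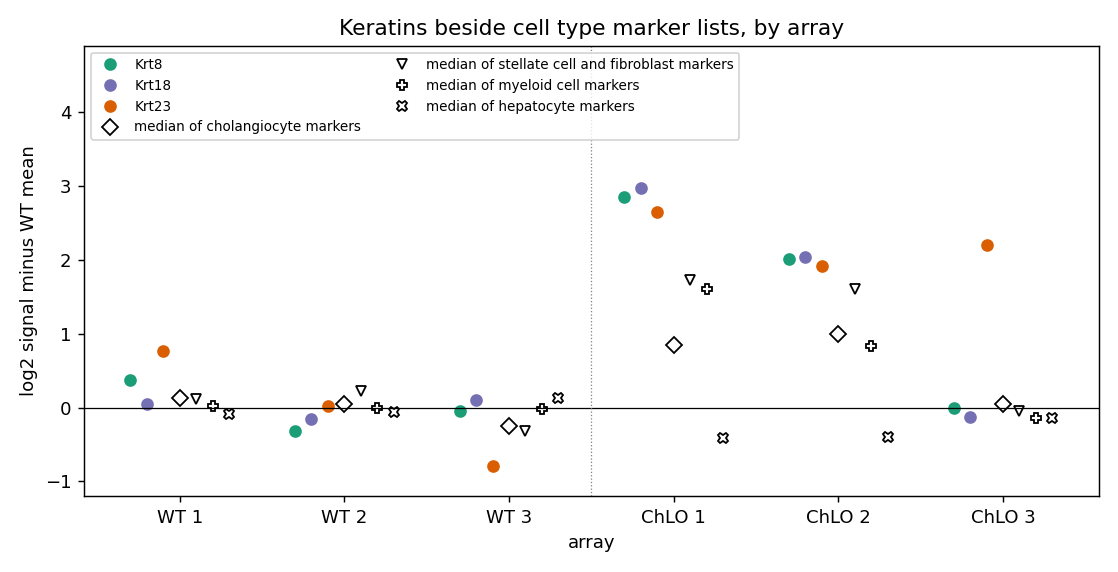
Log2 signal minus the WT mean of Krt8, Krt18 and Krt23 (coloured circles) and the median of the same value over 4 marker lists (open symbols), on each array. In ChLO 3 the list medians lie between -0.14 and 0.05, beside Krt8 at -0.01 and Krt23 at 2.20.

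Mesothelial markers, from the covering of the liver, which also holds K8, K18 and K19, had 5 of 10 tested and medians of -0.04, -0.17 and 0.38 in ChLO 1, 2 and 3, with summed signals of 564 to 693 in WT and 580 to 732 in ChLO. Msln, Upk3b and Wt1, which define these cells, were under the filter level. Gut and pancreas markers had 8 of 17 tested and medians of -0.81, 0.20 and 0.55. Their summed signals were 12082 to 13359 in WT and 4595 to 13077 in ChLO. Most of each sum came from Fabp2 (mean 13.17 in WT and 12.24 in ChLO) and Cela1 (11.27 and 11.35). Lgals4, the next brightest, had means of 7.90 and 8.00, so the sums say little about the rest of the list. Sinusoidal endothelial markers had medians of 0.22, 0.30 and -0.05, with summed signals of 11068 to 13585 in WT and 12585 to 16025 in ChLO. RNA integrity was read from Actb as the log2 signal of its 3′ probe set minus that of its 5′ probe set, which was 1.13, 1.38 and 1.28 in WT and 0.84, 1.03 and 1.46 in ChLO. For Actb, ChLO 1 and ChLO 2 thus lay below the WT range and ChLO 3 above it. The same value for Gapdh was -0.31, -0.14 and -0.13 in WT and -0.25, -0.20 and -0.14 in ChLO, inside the WT range. The part of these markers and of RNA integrity in the values of Krt8 and Krt18 was not tested. For Krt23, the value in ChLO 3 was 2.20 above the WT mean. On that array the hepatocyte, stellate, myeloid and cholangiocyte medians lay within 0.14 of the WT mean. The endothelial median was -0.05 there, the mesothelial 0.38 and the gut and pancreas 0.55, the last 2 above those of every other array. The part of these lists in the Krt23 values was not tested either.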

How the data were processed

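Liver RNA of 3 WT and 3 ChLO mice was measured on Affymetrix arrays with biotin label, per the labels' protocols, with a separate array for each mouse. The authors deposited log2 signals of 45101 probe sets, and MAS5 is named in the submitters' processing notes. The log2 scale and the scaling to a trimmed mean of 500 (2% cut from each end) were worked out from the values. Such scaling hides a shift shared by most transcripts. Detection calls and scanner files were not used here, and dim probe sets are variable on this scale, so the number of arrays and the signal limit the precision.

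Probe sets were named by the platform annotation. The 64 control probe sets and those with a mean under the 40th percentile (log2 5.50) were left out, and the probe set with the highest mean stood for its gene. ChLO was compared with WT by limma 3.58.1 in R 4.3.3 (eBayes with a trend), with Benjamini-Hochberg adjustment over 12598 genes and a threshold of 0.05. SE and intervals are limma's moderated ones. Ratios within arrays were compared by exact permutation with scipy 1.17.1. The limma procedure was tested on simulated data in which each gene had the same spread in both groups. Krt8 and Krt18 had a larger SD in ChLO, so that test does not cover genes like them. The members and gene lists were chosen with earlier results of these data known. The text names all members, up to 4 genes of each list with the smallest p (more for cholangiocyte and aggregate genes) and the 5 genes nearest to Krt8 with Krt18 and to each other keratin tested. The gut, mesothelium and endothelium lists are given mainly by medians and summed signals. A summed linear signal depends most on the brightest genes of its list.

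Same-numbered mice of the groups did not regularly deviate together (correlations of 0.30, -0.17 and 0.06 for numbers 1, 2 and 3). The value for number 1 was the highest of all pairs across the groups. Pairs with unlike numbers gave -0.31 to 0.26. The numbers were treated as unpaired. Alternatives covered normalization, filter, variance model, choice of probe set, the replicate block and leaving out each array.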

Additional observations from a re-analysis of the deposited data

How the results depend on the processing

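The keratin directions were kept in all alternatives run for Krt8, Krt18, Krt19 and Krt23, and Krt7 turned to 0.13 with spike-in scaling and 0.11 with array weights. Leaving out each array in turn gave -0.66 to 0.42 for Krt7, 1.00 to 2.43 for Krt8, 0.96 to 2.51 for Krt18, 0.48 to 0.73 for Krt19 and 1.86 to 2.64 for Krt23. The count of keratins called by limma was 0 to 3 and the count of genes called 0 to 302 in these fits, with 4 genes without ChLO 1. Array weights called 3 keratins (Krt8 at 1.96, Krt18 at 1.96 and Krt23 at 2.08) and 568 genes, but gave ChLO 2 a weight of 4.58 and ChLO 3 0.37, and their estimation stopped before it converged. The count of genes called was 14 at an adjusted p under 0.10, 3 with no filter and 1 with the replicate block, against 0. With all probe sets as the unit, 8 of 27022 probe sets were called, which is not a count of genes. The replicate block called 0 keratins, and Krt23 had an adjusted p of 0.0832 there. The log2 ratio of Krt8 to Krt18 differed by 0.032 after quantile normalization and by -0.094 to 0.15 when each array was left out. Spike-in scaling moved the median of all genes from 0.06 to 0.31 and Krt8, Krt18 and Krt23 to 1.87, 1.88 and 2.51. Krt8 and Krt7 could not be fitted without probe sets that can match several transcripts. Krt7 and Krt19 could not be fitted under the 60th percentile filter. The cause of these changes was not tested. Signals near the filter level limit what Krt7, Krt19 and Krt20 can show.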
